A study of Mus musculus with 33 samples.

Results

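The apolipoprotein L (APOL) family is the group of genes whose symbol is Apol followed by a digit. These rows were picked by symbol from the 56414 rows of a mouse RNA sequencing table. The rule found 13 genes: Apol6, Apol7a, Apol7b, Apol7c, Apol7d, Apol7e, Apol8, Apol9a, Apol9b, Apol10a, Apol10b, Apol11a and Apol11b. The family was chosen by a measured value, because Apol8 fell strongly at 3 days of treatment in the libraries labelled lymph node, so that difference is given as a description with no test. Of the 13 members, 7 were named when the choice was made (Apol6, Apol7c, Apol8, Apol9a, Apol9b, Apol10b and Apol11b) and the other 6 came from the symbol rule.

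The series holds 33 libraries of polyadenylated RNA from tumour-free C57Bl/6 mice, labelled as spleen (20 libraries) or as lymph node (13 libraries). Mice drank plain water (untreated) or water with 0.5% nicotinamide (NAM), an amide form of vitamin B3, for 1, 3 or 14 days. The spleen label has 5 libraries in each of the 4 groups, and the lymph node label has 3 untreated libraries, 2 at 1 day, 4 at 3 days and 4 at 14 days. Values are normalised counts, that is, read counts per gene divided by a size factor of the library, from libraries that held between 18325061 and 54830743 counted reads.

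The tissue labels went against their defining markers in 33 of 33 libraries. Glycam1, made by the high endothelial venules of lymph nodes, read 108167 to 214210.0 normalised counts in the libraries labelled spleen and 1.59 to 12.4 in those labelled lymph node. Spic, the transcription factor of splenic red pulp macrophages, was lower in every library labelled spleen (774 to 1295) than in any labelled lymph node (6117 to 10491). The text therefore writes "libraries labelled spleen" and "libraries labelled lymph node" throughout. In addition, 1 library labelled lymph node, replicate 1 at 1 day, carried a summed pancreatic enzyme signal of 65212 normalised counts, against 12.2 to 26.5 in the other 12, and the members' 1 day differences and their correlations with the gene scores are given with and without it. Counts, medians and sums of gene lists and the most similar genes include it. The label sets were scaled separately, and differences between the labels were not tested.

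APOL proteins are lipid-binding proteins related to the channel-forming human APOL1, which lyses trypanosomes, and unlike most apolipoproteins many of them stay inside cells. Mouse Apol9a and Apol9b are known as interferon-stimulated genes. Apol7c is expressed by dendritic cells. Apol8 and Apol11b have less settled roles, and no function is assigned to them here. Interferon-stimulated genes are switched on when interferon-activated transcription factors bind response elements in their promoters, while erythroid genes (globins, membrane skeleton, haem enzymes) are driven by GATA1 and KLF1 in red cell precursors, which the adult mouse spleen houses in its red pulp.

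In the mouse mm10 annotation, 12 of the 13 members lie on chromosome 15 between positions 77044729 and 77756983. Apol6 is at one end (chr15:77044729-77057108) and Apol8 at the other (chr15:77747799-77756983). Apol9a (chr15:77403789-77411080) and Apol9b (chr15:77729070-77736381) lie apart, with Apol7c (chr15:77524867-77533316), Apol10b (chr15:77584158-77596125) and Apol11b (chr15:77633972-77643289) between them. Apol7d is on chromosome 1 (chr1:71652832-71662843), where it is annotated antisense to and overlapping Fn1, and without strand its reads cannot be told from those of Fn1.

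The RefSeq promoter table (GRCm38.p6, 250 bases before and 50 after the start of transcription) matched 11 of the 13 members, all but Apol6 and Apol7d. The 4 promoters printed here belong to the members on which the results turn: an interferon-stimulated gene, the pair that moved with the erythroid genes, and the most abundant member. Capitals mark the matches to the motifs searched on both strands: GAAANNGAAA (a pair of interferon regulatory factor binding sites), AGTTTCNNTTTC (the interferon-stimulated response element, which overlaps the pair), CCACACCC (the box bound by KLF1), AGATAA (a site recognised by the erythroid factor GATA1) and, as another letter string recognised by the same factor, TGATAA. Apol9b is chr15:77728822-77729121 on the plus strand. Apol11b is chr15:77643237-77643536, Apol7c is chr15:77533266-77533565 and Apol8 is chr15:77756961-77757260, all on the minus strand.
Apol9b: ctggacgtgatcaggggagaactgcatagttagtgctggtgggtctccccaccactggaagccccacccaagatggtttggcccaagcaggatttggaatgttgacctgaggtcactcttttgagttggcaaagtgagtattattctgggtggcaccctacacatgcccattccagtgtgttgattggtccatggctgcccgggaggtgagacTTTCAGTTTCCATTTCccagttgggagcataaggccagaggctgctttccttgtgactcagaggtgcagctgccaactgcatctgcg
Apol11b: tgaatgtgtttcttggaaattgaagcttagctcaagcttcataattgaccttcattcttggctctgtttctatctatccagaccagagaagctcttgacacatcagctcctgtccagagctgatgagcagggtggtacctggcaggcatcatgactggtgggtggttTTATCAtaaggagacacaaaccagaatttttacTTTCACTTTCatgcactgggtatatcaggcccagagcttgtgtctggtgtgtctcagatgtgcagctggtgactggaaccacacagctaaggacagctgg
Apol7c: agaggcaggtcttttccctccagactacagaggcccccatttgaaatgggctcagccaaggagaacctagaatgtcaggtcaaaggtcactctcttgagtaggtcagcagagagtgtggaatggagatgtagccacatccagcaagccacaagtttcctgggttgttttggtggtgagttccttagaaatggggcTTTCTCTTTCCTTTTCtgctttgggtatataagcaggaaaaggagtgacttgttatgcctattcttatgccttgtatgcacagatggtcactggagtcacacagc
Apol8: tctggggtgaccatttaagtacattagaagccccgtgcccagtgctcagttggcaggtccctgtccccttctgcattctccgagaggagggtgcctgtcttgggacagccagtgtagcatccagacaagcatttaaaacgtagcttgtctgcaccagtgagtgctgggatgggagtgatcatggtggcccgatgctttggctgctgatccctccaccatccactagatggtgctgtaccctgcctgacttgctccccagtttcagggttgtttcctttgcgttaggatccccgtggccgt

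The GAAANNGAAA pair was in the promoters of 8 of the 11 members (Apol7c, Apol7e, Apol9a, Apol9b, Apol10a, Apol10b, Apol11a and Apol11b), against 3.99% of 27025 genes. AGTTTCNNTTTC was in Apol9a and Apol9b and in 0.303% of all genes, beginning at -33 from the start of transcription in Apol9b. The Apol9a and Apol9b promoters were identical over the 278 bases in which they overlap, and those of Apol11a and Apol11b matched at 298 of 300 bases. TGATAA, in 10.4% of genes, was in Apol10a, Apol10b, Apol11a and Apol11b. The Apol8 window held no match to any of these letters. A match is a description of letters, and binding was not measured.

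Apol7c was by far the most abundant member under both labels. Per kilobase of exon, untreated libraries labelled spleen averaged 5249 normalised counts for Apol7c, 955 for Apol7e, 179 for Apol10b, 167 for Apol9b, 68.6 for Apol11b, 16.97 for Apol9a and 1.24 for Apol8. In untreated libraries labelled lymph node the same per-kilobase levels were 3089.7 for Apol7c, 750.0 for Apol7e, 239 for Apol11b, 164 for Apol10b, 136 for Apol9b, 52.3 for Apol8 and 13.7 for Apol9a. The order was thus alike for Apol7c and Apol7e, whereas Apol11b and Apol8 stood higher in the order under the lymph node label. Apol7c made up 72.8% to 81.3% of the summed normalised counts of the family in the libraries labelled spleen and 64.0% to 78.1% in those labelled lymph node.

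Some members share reads. Of the 75-base windows (the read length) in its transcripts, 59.8% of those of Apol7b were also in Apol7e, 43.3% of the windows of Apol9b were in another member, and for Apol9a, Apol11b and Apol7c this share was 13.8%, 7.79% and 5.88%. Apol8 shared none with another member. How the study's counting treated reads with several matches is not given in the sources used here, so the split within Apol7b and Apol7e and within Apol9a and Apol9b is uncertain. A filter on low values (mean of at least 10 normalised counts over a label) kept 9 members under the spleen label (Apol6, Apol7b, Apol7c, Apol7e, Apol9a, Apol9b, Apol10b, Apol11a and Apol11b) and 8 under the lymph node label (Apol7b, Apol7c, Apol7e, Apol8, Apol9a, Apol9b, Apol10b and Apol11b).

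Apol8 was nearly lost in the libraries labelled lymph node at 3 days of NAM. Untreated libraries read 111, 182 and 171 normalised counts, the 1 day libraries 71.1 and 206, the 3 day libraries 19.9, 0, 1.82 and 9.23, and the 14 day libraries 20.6, 41.5, 11.4 and 76.8. Group means were 155 ± 38.1 (SD, n = 3), 139 ± 95.3 (n = 2), 7.73 ± 9.03 (n = 4) and 37.6 ± 29.0 (n = 4). Of the 8 libraries at 3 and 14 days, 7 lay under every library of the other 2 groups, and the last, at 76.8 after 14 days, lay between the 1 day libraries. In order of the means, the untreated and 1 day libraries overlapped, and so did the 14 day and 3 day libraries. The value of 0 allows up to 3 reads, and the 4 libraries at 3 days held 18, 0, 2 and 12 reads of Apol8 against 109, 165 and 155 in the untreated ones. In bulk samples fewer cells of a type and less RNA per cell cannot be told apart.

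The 3 day difference of Apol8 was -4.94 on the log2(normalised count + 1) scale, a fitted value that depends on the added count (-5.95 with 0.1 and -3.90 with 5 in place of 1). Apol11b had the same shape at a higher level. It read 375, 487 and 902 normalised counts in untreated libraries, 419 and 422 at 1 day, 254, 52.2, 110.1 and 192 at 3 days, and 147, 245, 139.5 and 356 at 14 days. Every 3 day and every 14 day library was below every untreated library, and the 3 day difference was -2.07 on the log2 scale. Over all 18215 genes tested, 7.25% had 3 day libraries all below the untreated ones, and 8.09% had them all above. Of the 8 members, 2 were below (Apol8 and Apol11b) and 2 above (Apol7c and Apol7e). The choice of the family used this comparison, so nothing is read from these counts.

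**Figure D1:**
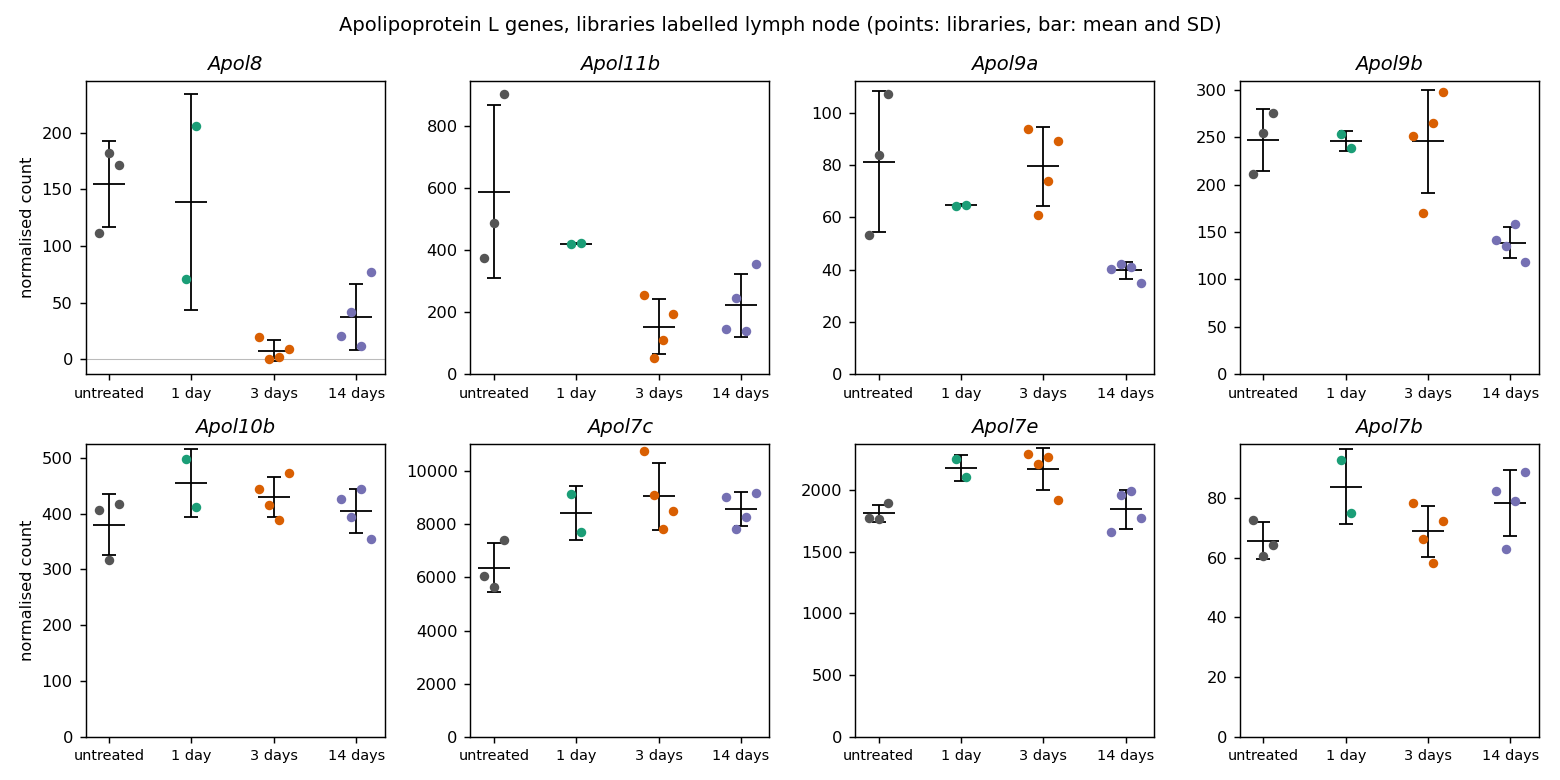
Normalised counts of the members in the 13 libraries labelled lymph node (vertical axes) by treatment group (horizontal axes), with points for libraries and bars for the mean and SD. The means of Apol8 and Apol11b are lowest at 3 days, those of Apol9a and Apol9b at 14 days, and those of Apol7b, Apol7c, Apol7e and Apol10b in the untreated libraries.

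At 14 days against untreated, under the lymph node label, the mean Apol8 level was 37.6 against 155 normalised counts. The difference was -2.31 on the log2 scale (SE 0.79) and did not pass (limma adjusted p = 0.231). That of Apol11b was -1.41 (SE 0.43, limma adjusted p = 0.163). These untreated libraries also enter the 3 day difference by which the family was chosen, so the Apol8 p-values against them are not read. The difference of 14 days from 1 day uses none of these libraries, but its SE and p share the spread of all 4 groups. There Apol8 differed by -1.99 (SE 0.90, limma adjusted p = 0.362) and Apol11b by -1.03 (SE 0.49, limma adjusted p = 0.390). At 1 day against untreated Apol8 differed by -0.32 (SE 0.95, limma adjusted p = 0.918) and Apol11b by -0.38. Without the library carrying pancreatic RNA, the 1 day value of Apol8 was 0.44 (limma adjusted p = 0.923) and that of Apol11b -0.38. The differences of 14 days from 1 day were then -2.75 for Apol8 (limma adjusted p = 0.443) and -1.03 for Apol11b (limma adjusted p = 0.628). Those values rest on 1 library at 1 day, assumed to vary like the others.

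The erythroid genes moved the same way in these libraries. Slc4a1, the band 3 anion exchanger of the red cell membrane, averaged 3156 ± 1456 normalised counts in untreated libraries, 2283 ± 631 at 1 day, 236 ± 272 at 3 days and 723 ± 519 at 14 days. For Klf1, an erythroid transcription factor, the means in the same order were 534 ± 229.5, 249 ± 99.2, 67.6 ± 45.5 and 124 ± 59.4. At 3 days 38 of 39 tested erythroid genes, globins left aside, lay below every untreated library, against 7.25% of all genes, with a median log2 difference of -2.32 (0.00 over all genes). By role, the median was -3.32 for membrane and skeleton genes, -2.43 for red cell enzymes, -1.93 for transcription and signalling genes and -0.76 for haem synthesis and iron genes. It was -1.38 for the 4 globins, of which 2 lay below.

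At 14 days against untreated, 18 of the 39 erythroid genes fell, none rose, and 35 lay below without overlap, against 0.791% of all genes called and 6.02% below. The median log2 difference was -1.73. Gata1, the master erythroid transcription factor, fell by 1.52 (limma adjusted p = 0.00247), Epor, the erythropoietin receptor, fell by 1.17 (limma adjusted p = 0.00474) and Klf1 fell by 2.14 (limma adjusted p = 0.0486). Slc4a1 (-2.35, limma adjusted p = 0.163), Alas2, the erythroid enzyme that starts haem synthesis (-1.17, 0.231), and Tfrc, the transferrin receptor (-0.46, 0.251), did not pass. At 1 day none of the 39 passed (median -0.42) and 14 lay below every untreated library and 1 above, against 15.5% and 17.1% of all genes. At 14 days against 1 day none passed (median -0.90) and 22 lay below, against 10.5% of all genes.

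Across the 13 libraries Apol8 tracked the mean log2 level of the 39 erythroid genes closely (Pearson r = 0.96, Spearman rho = 0.96). The r was 0.95 without the 2 libraries farthest from the median score, 0.97 on deviations from the group means and 0.96 without the pancreatic RNA library. Since Apol8 was chosen for a fall in these libraries, this is a description with no test. Apol11b, taken up after its values were seen, gave r = 0.95 and rho = 0.96, with r = 0.91 on deviations from the group means and 0.95 without the pancreatic RNA library. The mean score was 9.52 ± 0.30 in untreated libraries, 8.94 ± 0.28 at 1 day, 7.33 ± 0.63 at 3 days and 7.98 ± 0.42 at 14 days. The points share library, depth and group, so libraries of a group are not independent of its treatment.

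**Figure D2:**
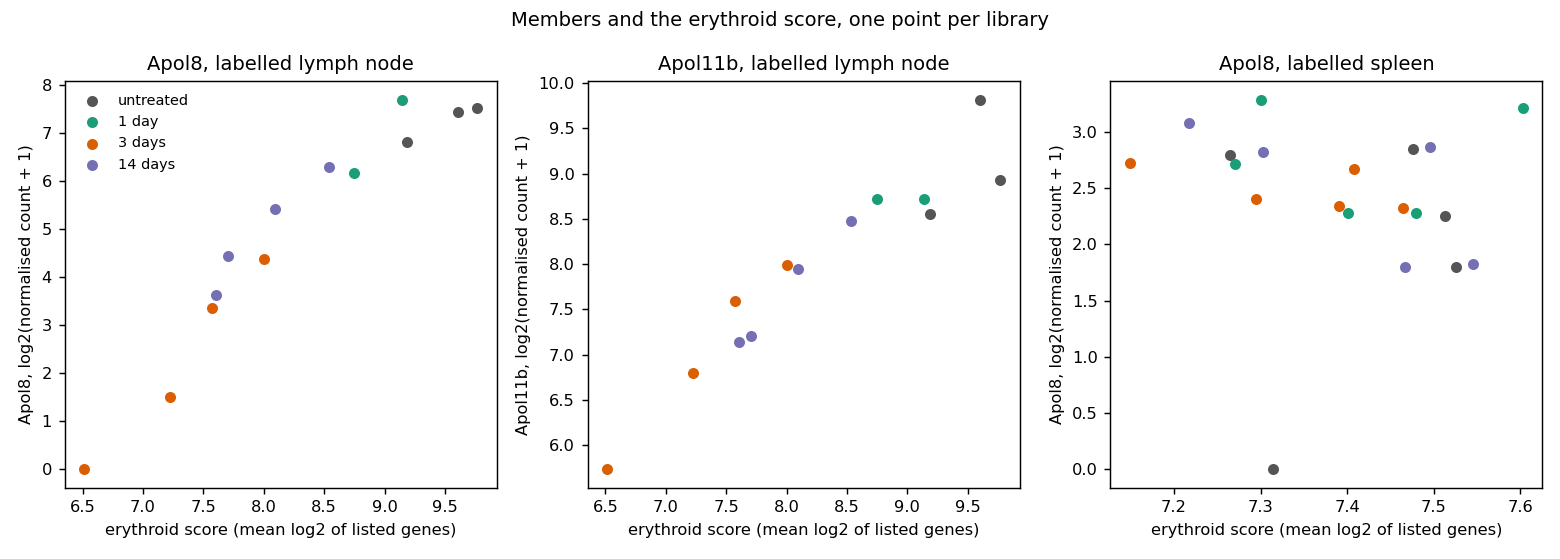
Log2 normalised counts of Apol8 and Apol11b (vertical axes) against the mean log2 level of the erythroid genes (horizontal axes), with each point a library coloured by group, for both genes under the lymph node label and for Apol8 under the spleen label. Under the lymph node label both genes rise with the score (r = 0.96 and 0.95), while under the spleen label Apol8 reads at most 8.76 normalised counts, below the filter, and no relation is read there.

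Among the genes most like Apol8 over the 13 libraries, of all genes with a symbol past the filter, were Slc4a1, Epb42, Rhd and Kel, each with Pearson r = 0.98. All of these encode red cell membrane proteins. Over the 39 erythroid genes the median r with Apol8 was 0.85, and 23 exceeded 0.8, as did 0.494% of all genes. With Apol11b the median was 0.89 and 25 exceeded 0.8, as did 0.500% of all genes. The globins were less close (median r of 0.72 with Apol8 and 0.80 with Apol11b). Other members were not close to the erythroid genes. Their median r was -0.59 for Apol7c, -0.35 for Apol7e, -0.33 for Apol10b, 0.25 for Apol9a and 0.31 for Apol9b.

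Under the spleen label Apol8 was near the floor. In the 20 libraries labelled spleen Slc4a1 was at most 5.65 normalised counts, and Apol8 ran from 0 to 8.76, with group means of 3.67 (untreated), 6.05 (1 day), 4.67 (3 days) and 4.97 (14 days). The groups overlapped, and no difference was detectable at this depth. Of the erythroid genes 27 passed the filter under this label. With Apol8 itself below the filter, a relation with them could hardly have appeared, and the correlation of Apol8 is not read. Apol11b, by contrast, was present at 122 to 289 normalised counts under the spleen label, where no difference passed at any time. Over the 27 erythroid genes past the filter there, the median r with Apol11b was -0.12 (-0.46 to 0.64).

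Apol9b fell in the libraries labelled lymph node at 14 days of NAM, and Apol9a had the same pattern short of the threshold. Apol9b read 211, 255 and 276 normalised counts in untreated libraries, 254 and 238 at 1 day, 252, 169.8, 265 and 298 at 3 days, and 142, 136, 159 and 119 at 14 days. Its 14 day libraries were lower than the other 9. Apol9a read 53.1, 83.8 and 107 in untreated libraries, 64.5 and 64.9 at 1 day, 93.9, 61.0, 73.7 and 89.2 at 3 days, and 40.4, 42.3, 41.2 and 34.9 at 14 days. Here too the 14 day libraries were lower than the other 9.

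Against untreated, Apol9b fell by 0.83 on the log2 scale at 14 days (SE 0.17, limma adjusted p = 0.0279). Apol9a differed by -0.96 (SE 0.23, limma adjusted p = 0.0578). Of the 8 members 1 was thus called, against 0.791% of all genes. An unadjusted limma p of at most 0.05 was reached by 5 members and by 2157 of all 18215 genes. The median difference of the 8 members was -0.40, against 0.00 over all genes. Libraries did not overlap for 4 members below untreated (Apol8, Apol9a, Apol9b and Apol11b), against 6.02% of all genes below, and for 1 above (Apol7c), against 5.49% above. The choice of the family used these untreated libraries, so nothing is read from the counts and the median over members. The call of Apol9b was lost when only the groups compared were fitted (adjusted p = 0.0567) and when untreated replicate 2 (0.149), untreated replicate 3 (0.123), 14 day replicate 1 (0.0513) or 14 day replicate 4 (0.0679) was left out. Apol9a passed with edgeR (adjusted p = 0.0485) and DESeq2 (adjusted p = 0.00608) on the reads recovered from the table.

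Against the 1 day libraries, which do not enter the choice of the family, Apol9b differed by -0.83 at 14 days (SE 0.19, limma adjusted p = 0.0632) and Apol9a by -0.69 (SE 0.26, limma adjusted p = 0.243). None of the 8 members passed, against 0.401% of all genes. An unadjusted limma p of at most 0.05 was reached by 4 members and by 2333 of all 18215 genes. DESeq2 called Apol9b (adjusted p = 0.00439) and edgeR called none. Libraries did not overlap for 4 members below the 1 day ones (Apol7e, Apol9a, Apol9b and Apol11b), against 10.5% of all genes. At 1 day against untreated the differences were 0.00 for Apol9b and -0.27 for Apol9a, and at 3 days, as a description, -0.03 and 0.00. Without the pancreatic RNA library the 14 day differences from 1 day were -0.78 for Apol9b (limma adjusted p = 0.282) and -0.70 for Apol9a (limma adjusted p = 0.492), and the 1 day differences -0.04 and -0.26.

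The interferon genes were lower at 14 days in the same libraries. Of 36 tested genes of the 2 interferon lists 9 fell, none rose, 23 had groups that did not overlap, and the median log2 difference was -0.48. Over all genes 0.791% were called and 6.02% lay below. At 14 days against 1 day none of the 36 was called and 4 lay below, against 0.401% of all genes called and 10.5% below, with a median of -0.25. Isg15, a ubiquitin-like antiviral protein, averaged 2879.9 ± 557 normalised counts in untreated libraries and 1585 ± 304 at 14 days, and fell by 0.86 on the log2 scale (limma adjusted p = 0.0138). Irf7, a transcription factor that amplifies the interferon response, fell by 0.62 (limma adjusted p = 0.0138) and Mx1, an antiviral GTPase, fell by 0.79 (limma adjusted p = 0.0319). Ifit1 (-0.83, limma adjusted p = 0.0907), Usp18 (-0.53, 0.0910), Oas1a (-0.42, 0.138) and Gbp2 (-0.12, 0.598) did not pass. The sum of the red pulp macrophage genes was lower as well, running from 45430.1 to 65764 normalised counts at 14 days against 74240.2 to 84934 in untreated libraries, with 1 of 6 called lower. Of the megakaryocyte genes 5 of 6 lay below every untreated library and none was called (median -0.63), and their sum ran from 6149 to 9534 against 11008 to 11347. Neutrophil genes were called lower in 2 of 8 (median -1.06), and in 4 of 8 at 14 days against 1 day (median -1.65), where 0.401% of all genes were called. The part of these cell types in the result was not tested.

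Over the 13 libraries Apol9a tracked the mean log2 level of the 36 interferon genes (r = 0.76, permutation p = 0.00344, adjusted over 10 tests 0.0172, and rho = 0.77, permutation p = 0.00299, adjusted 0.0172). Apol9b did as well (r = 0.68, permutation p = 0.0115, adjusted 0.0263, and rho = 0.63, permutation p = 0.0231, adjusted 0.0385). Without the 2 libraries farthest from the median score r was 0.67 for Apol9a (permutation p = 0.0255) and 0.51 for Apol9b (permutation p = 0.107). On deviations from the group means r was 0.31 (permutation p = 0.368) and 0.14 (permutation p = 0.468), so neither relation held within groups. Without the pancreatic RNA library r was 0.83 for both (permutation p = 0.00127 and 0.00094).

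**Figure D3:**
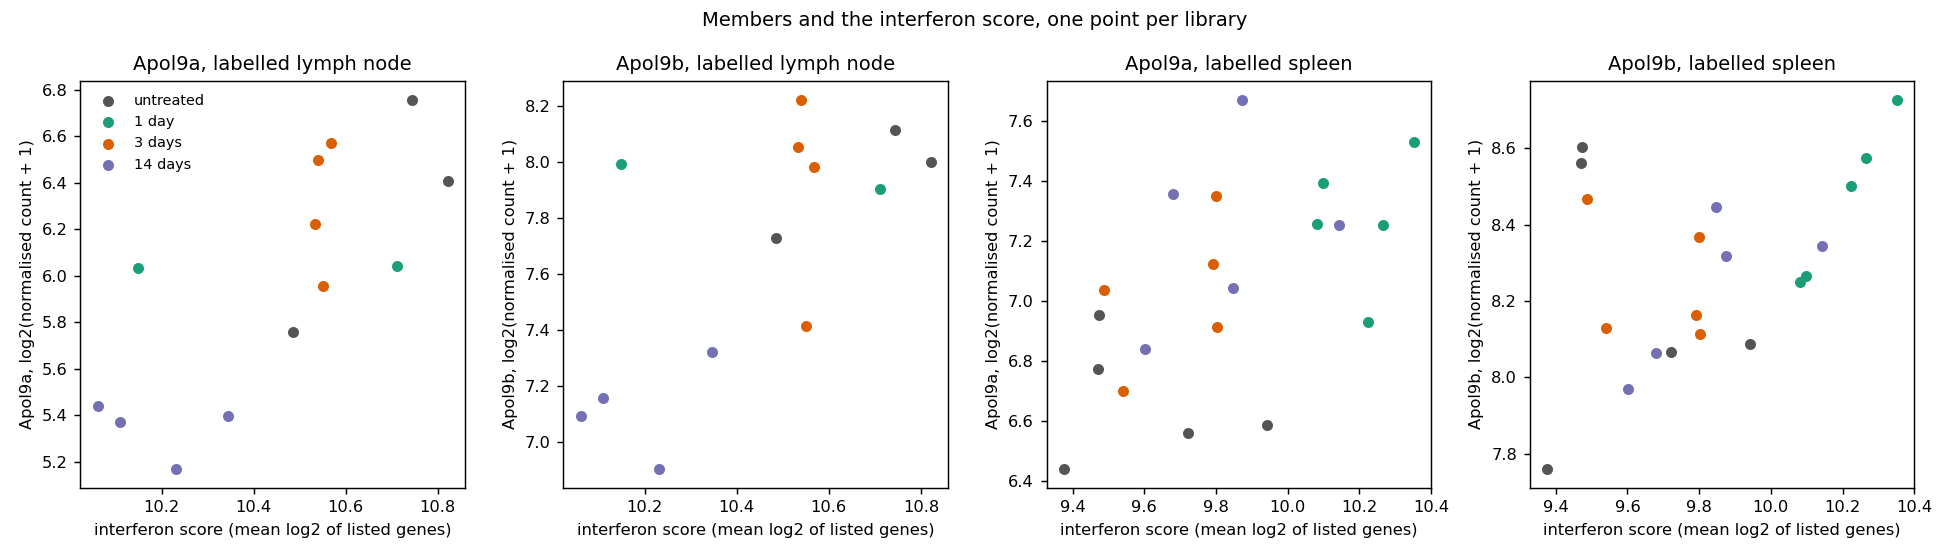
Log2 normalised counts of Apol9a and Apol9b (vertical axes) against the mean log2 level of the interferon genes (horizontal axes), with each point a library coloured by group and the labels drawn apart. Under the lymph node label the 14 day libraries sit lowest on the vertical axis and, beside 1 of the 1 day libraries, at low scores (r = 0.76 and 0.68), and under the spleen label the cloud is looser (r = 0.56 and 0.42).

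Over the libraries labelled lymph node, among the genes most like Apol9a were Apol9b (r = 0.92), Nit2 (0.90), Hs3st2 (0.86) and Rtp4 (0.84). For Apol9b they were Apol9a (0.92), Nit2 (0.89), Hs3st2 (0.89), Tmem107 (0.87) and Aaas (0.86). Rtp4 is interferon-stimulated, and Apol9a and Apol9b share part of their sequence, as given above. Over the 36 interferon genes the median r was 0.66 with Apol9a and 0.62 with Apol9b, whereas it was 0.06 with Apol8. For Apol9b the median r was higher with 6 megakaryocyte genes (0.72) and 8 neutrophil genes (0.66), and it was 0.52 with 6 red pulp macrophage genes, and for Apol9a these were 0.56, 0.51 and 0.33.

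Apol7c was higher in NAM-treated than in untreated libraries labelled lymph node without passing the test. It read 6036, 5646 and 7412 normalised counts in untreated libraries, 9155 and 7713 at 1 day, 10768, 9115, 7838 and 8487 at 3 days, and 9038, 7807, 8260.0 and 9164 at 14 days. The lowest of the 10 treated libraries, at 7713, was above the highest untreated one. Over all genes, 17.1% had 1 day libraries all above the untreated ones and 5.49% had 14 day libraries all above. The log2 differences were 0.41 at 1 day (limma adjusted p = 0.136), 0.51 at 3 days as a description, and 0.44 at 14 days (SE 0.11, limma adjusted p = 0.0724). Apol7c at 14 days passed with DESeq2 (adjusted p = 0.00918), with library weights (0.0254) and without untreated replicate 3 (0.0390). Without the pancreatic RNA library its 1 day difference was 0.29 (limma adjusted p = 0.474).

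Apol7e averaged 1810.5 ± 71.3 normalised counts in untreated libraries, 2178 ± 108 at 1 day, 2171 ± 170.0 at 3 days and 1845 ± 157 at 14 days. Its difference was 0.27 at 1 day (limma adjusted p = 0.192) and -0.24 at 14 days against 1 day (limma adjusted p = 0.246), and 0.22 and -0.19 without the pancreatic RNA library (limma adjusted p = 0.454 and 0.583). Apol10b averaged 380.5 to 455 over the 4 groups and Apol7b 65.7 to 83.8, and neither passed at 1 or 14 days. Their 1 day differences were 0.26 and 0.34, and 0.12 and 0.19 without the pancreatic RNA library. At 1 day none of the 8 members passed, against 1.21% of all genes, and edgeR and DESeq2 called none. An unadjusted limma p of at most 0.05 was reached by 2 members and by 2726 of all 18215 genes. Of 18 dendritic cell genes none was called at 1 or 14 days. At 1 day 7 lay above every untreated library and 2 below, against 17.1% and 15.5% of all genes, and at 14 days 1 lay above and 3 below, against 5.49% and 6.02%. The 1 day counts rest on 2 libraries, of which 1 carries the pancreatic RNA. Their sum was 40462 to 41632 normalised counts untreated, 40078 to 47427 at 1 day and 38060.5 to 41259 at 14 days, and its part in the Apol7c values was not tested.

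Under the spleen label Apol9a and Apol10b rose at 1 day of NAM. Apol9a read 123, 95.1, 108, 93.2 and 85.7 normalised counts in untreated libraries and 152, 167, 152, 121 and 184 at 1 day. Only the lowest 1 day library, at 121, lay under the highest untreated one, at 123. The means were 101 ± 14.7 and 155 ± 23.4 (SD, n = 5 each), and the log2 difference was 0.61 (SE 0.16, limma adjusted p = 0.0131). The call held without each of the 10 libraries in turn.

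Apol10b read 509, 440.4, 360.4, 423 and 352 normalised counts in untreated libraries and 458, 503, 564, 528 and 620.1 at 1 day. The groups overlapped, with means of 417 ± 64.2 and 534 ± 61.3, and the log2 difference was 0.36 (SE 0.11, limma adjusted p = 0.0285). This call was lost with quantile normalisation (adjusted p = 0.0689), when only the groups compared were fitted (0.0685), and without untreated replicate 3 (0.0700) or 5 (0.0785) or 1 day replicate 3 (0.0616), 4 (0.0505) or 5 (0.0693). These 2 calls of 9 members compare with 16.6% of all genes called, so the share is near the background. The median difference of the 9 members was 0.20, against 0.01 over all genes.

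The other 7 members did not pass at 1 day. Apol9b read 388, 271, 377, 267 and 216 normalised counts in untreated libraries and 303, 307, 380.2, 361 and 423 at 1 day, a difference of 0.25 (limma adjusted p = 0.267) between groups that overlapped. Apol6 read 15.6, 78.1, 54.9, 78.3 and 57.8 untreated and 72.2, 211, 62.4, 156 and 65.7 at 1 day (0.98, SE 0.51, limma adjusted p = 0.196). It overlaps Mb, the gene of myoglobin, and reads of overlapping genes may not be separable. Apol7c, Apol7e, Apol7b, Apol11a and Apol11b differed by between -0.23 and 0.20.

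**Figure D4:**
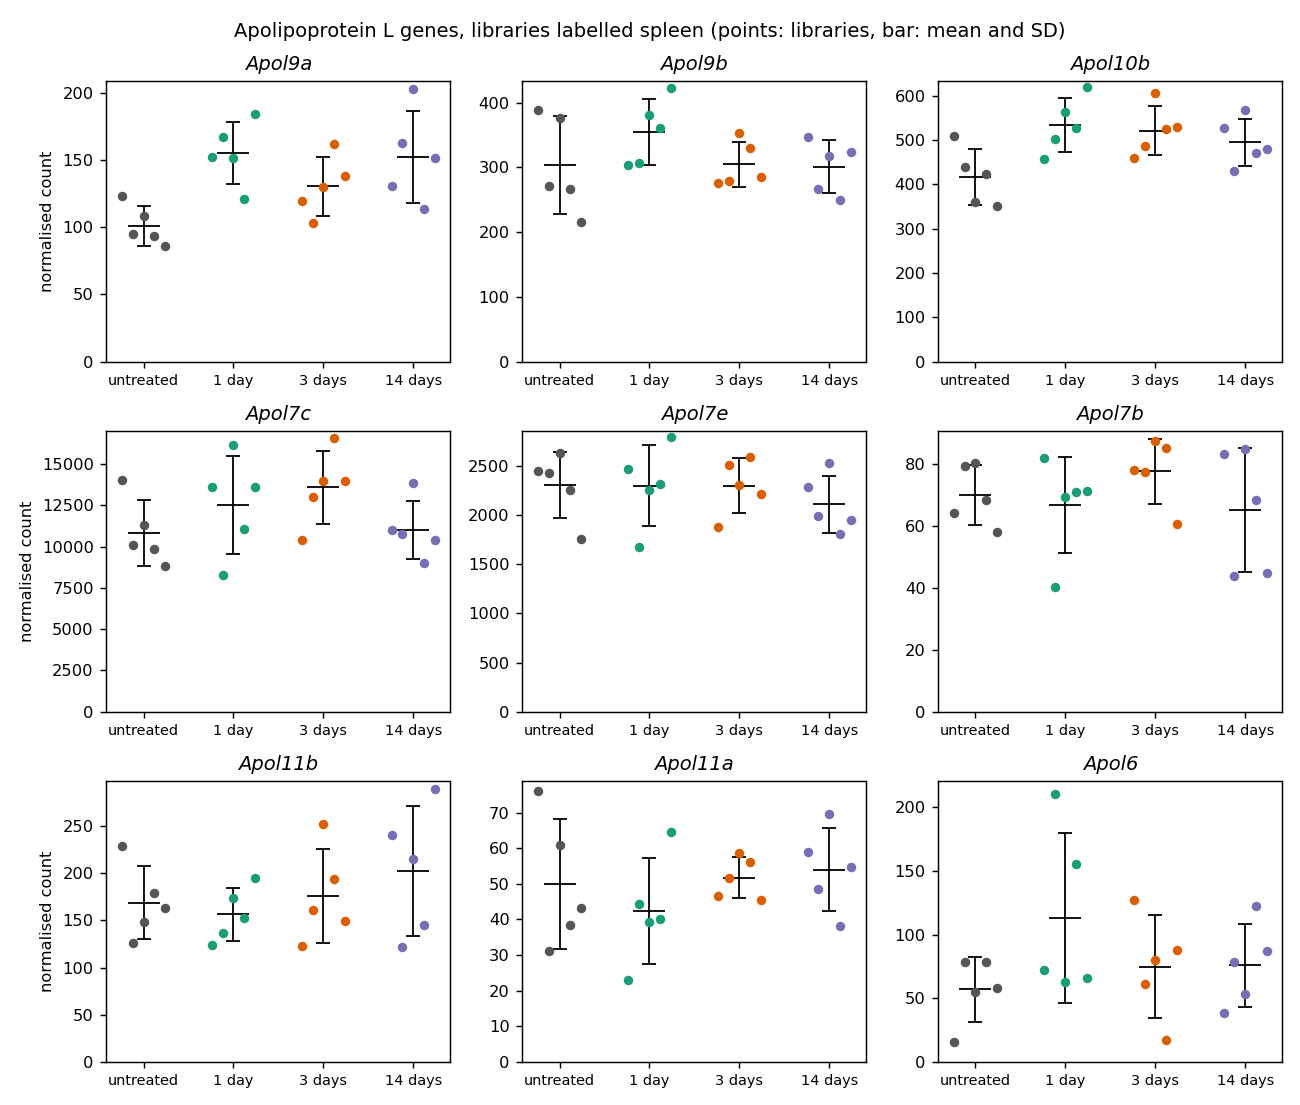
Normalised counts of the members in the 20 libraries labelled spleen (vertical axes) by treatment group (horizontal axes), with points for libraries and bars for the mean and SD. The Apol6, Apol7c, Apol9a and Apol10b means are lowest in the untreated group, and for each member the groups overlap.

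The interferon genes rose at 1 day under the same label. Of 36 tested genes 24 rose and none fell, against 16.6% of all genes called, with a median log2 difference of 0.60. By role 19 of 24 antiviral effectors and 5 of 12 sensors and transcription factors rose. Of a separate list of interferon-gamma-induced GTPases 4 of 7 rose. Isg15 averaged 548 ± 129 normalised counts untreated and 1232 ± 128 at 1 day, and rose by 1.19 (limma adjusted p = 0.000483). Ifit1, which binds foreign RNA, rose by 1.17 (limma adjusted p = 0.00129). Usp18, which removes ISG15 from proteins, rose by 0.68 (0.000809), Irf7 by 0.62 (0.0140) and Oas1a, an RNA-sensing synthetase, by 0.61 (0.0206). Mx1 (0.34, 0.108) and Gbp2 (0.28, 0.0806) did not pass. Adipocyte genes varied widely in these libraries, their sum running from 39194 to 213482 normalised counts untreated and from 130461 to 556662 at 1 day, with 1 of 8 called higher, and 1 of 8 neutrophil genes was called higher as well (median 1.55). The share of reads from mitochondrial genes was 8.92% to 9.85% in the untreated libraries and 4.85% to 8.21% at 1 day, with no overlap. The part of these in the interferon, Apol9a and Apol10b values was not tested.

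At 3 days none of the 9 members passed, against 5.55% of all genes. The 3 day libraries held 43632016 to 54830743 counted reads and the untreated ones 18325061 to 31486631, with no overlap. The part of this depth difference in the 3 day values was not tested. Apol9a (119, 103, 130.2, 162 and 138 normalised counts) differed by 0.36 (limma adjusted p = 0.189) and Apol10b (459, 486, 606, 525 and 529) by 0.33 (limma adjusted p = 0.0803). These 2 had an unadjusted limma p of at most 0.05, as did 4007 of all 18243 genes. DESeq2 called Apol10b and edgeR none. Apol7c averaged 13579 ± 2219 against 10812 ± 2009 untreated (0.33, limma adjusted p = 0.242). Of the 36 interferon genes none passed at 3 days (median 0.10). In the dendritic cell list 3 of 18 genes fell, among them the type 1 dendritic cell receptors Xcr1 (fell by 0.44, limma adjusted p = 0.0249) and Clec9a (fell by 0.47, limma adjusted p = 0.0353), and Ccr7, the receptor that guides dendritic cells to lymph nodes, passed at no time.

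At 14 days no gene was called by limma or edgeR and DESeq2 called 1 (0.0% by limma, with 510 genes at an unadjusted p under 0.05). Apol9a (131, 163, 203, 114 and 151 normalised counts, mean 152 ± 34.1) was 0.57 above untreated with an unadjusted limma p of 0.00186 and an adjusted p of 1. Apol10b was 0.25 above with an unadjusted limma p of 0.0311. The range over the 9 members was -0.15 to 0.57.

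**Figure D5:**
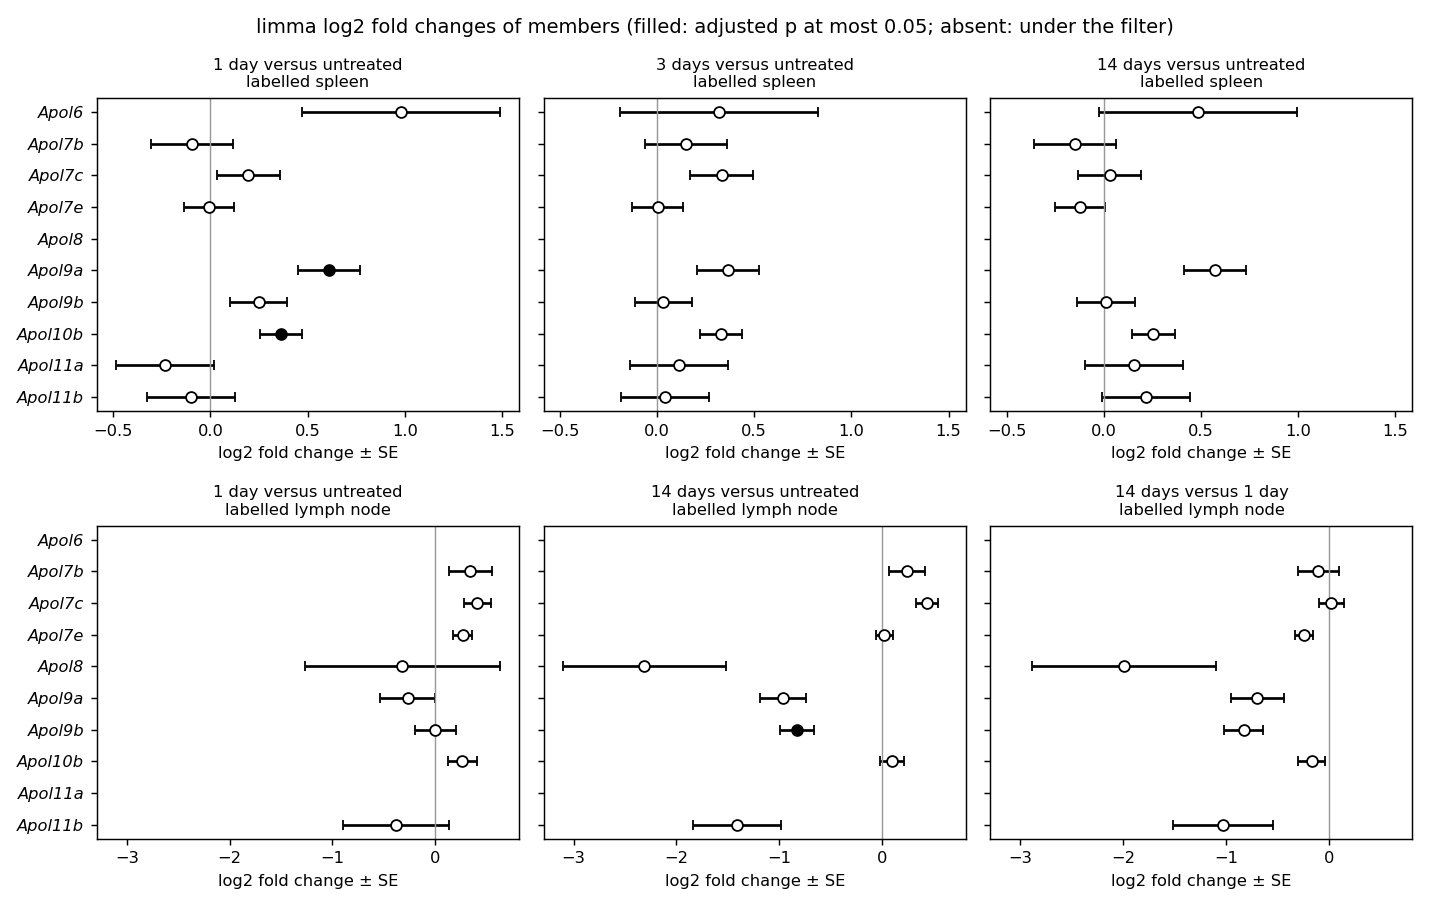
Log2 differences with standard errors as bars (horizontal axes) for the members past the filter (vertical axis), for 1, 3 and 14 days against untreated in the upper row (spleen label) and 1 and 14 days against untreated and 14 days against 1 day in the lower row (lymph node label), with filled points for a limma adjusted p of at most 0.05. Filled are Apol9a (0.61) and Apol10b (0.36) at 1 day under the spleen label and Apol9b (-0.83) at 14 days under the lymph node label, and the Apol8 values of -2.31 and -1.99 lie farthest from 0 with wide error bars.

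Over the 20 libraries labelled spleen Apol9a tracked the interferon score (r = 0.56, permutation p = 0.0113, adjusted over 10 tests 0.0263, and rho = 0.55, permutation p = 0.0132, adjusted 0.0263). Without the 2 farthest libraries r was 0.46 (permutation p = 0.0548), and on deviations from the group means it was 0.21 (permutation p = 0.434), so the relation did not hold within groups. Apol9b gave r = 0.42 (permutation p = 0.0666, adjusted 0.0951) and rho = 0.34 (permutation p = 0.146). The genes most like Apol9a here were Atf4 (r = 0.79), Mrpl24 (0.77), Wdr53 (0.76), Xrcc6 (0.76) and Vps36 (0.75), and those most like Apol9b were Psme1 (0.89), Vim (0.88), Dnaja2 (0.88), Cct2 (0.87) and Acsl5 (0.87). Psme1 encodes an interferon-inducible activator of the proteasome, and Atf4 the main transcription factor of the integrated stress response. The median r with the 36 interferon genes was 0.48 for Apol9a, 0.45 for Apol10b and 0.35 for Apol9b. With the interferon-gamma-induced GTPases it was 0.56, 0.51 and 0.55. With the dendritic cell genes it was 0.17, 0.25 and 0.44 in the same order, 0.47 for Apol7c and 0.46 for Apol7e.

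The members under the filter were near the floor of detection. In the libraries labelled lymph node Apol11a ran from 1.14 to 18.8 normalised counts, Apol6 from 2.24 to 30.0, Apol7a from 0 to 15.4 and Apol7d from 0 to 4.42. Apol10a was at 0 in all but 2 of those libraries (2.00 and 6.71). Their differences under this label are not given. In the libraries labelled spleen Apol7a reached at most 6.99 normalised counts, Apol10a 11.5 and Apol7d 3.85.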

How the data were processed

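The submitters' processing notes list STAR 2.4.0, DESeq2 and the mm10 build without giving their roles, and the study's methods do not tie an alignment to these libraries. The authors deposited a signal value per gene, read here as counts divided by a size factor of the library. Every non-zero deposited value came out as a whole read within 0.1 (100.0% in each library). Strand use in the counting is not given in the sources used here.

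From these values log2(normalised count + 1) was tested with limma 3.58.1 (R 4.3.3, trended variance, Benjamini-Hochberg adjustment over 18243 genes in the spleen set and 18215 in the lymph node set, threshold 0.05), with the 4 groups of a label in 1 fit and genes under a mean of 10 left out. The recovered reads were also tested with edgeR 4.0.16 and DESeq2 1.42.0. Correlations used 100000 permutations, two-sided (scipy 1.17.1). The scripts were tested on simulated data.

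The members and the gene lists were chosen with earlier results of these data known. Named genes are the members, the 5 genes most correlated with Apol8, Apol9a and Apol9b, and genes preset from the erythroid, interferon and dendritic cell lists. Some genes that this rule names are not reported here. The labels do not say whether an animal gave both organs or that libraries came from separate animals, so p-values measure the spread between these libraries, which may be technical. The label names no batch. Intervals and floors cover counting error only.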

Additional observations from a re-analysis of the deposited data

Results flagged for a closer look

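At 1 and 14 days the log2 differences of Apol9a from untreated had opposite signs under the labels, and of these 4 values 1 passed the test. At 3 days they did not, with 0.36 under the spleen label and, as a description, 0.0039 under the lymph node label. At 1 day the difference was 0.61 in the libraries labelled spleen (limma adjusted p = 0.0131) and -0.27 in those labelled lymph node (limma adjusted p = 0.692, -0.54 to -0.04 with a library left out), 0.88 apart. At 14 days it was 0.57 (limma adjusted p = 1) and -0.96 (limma adjusted p = 0.0578), 1.53 apart. In both cases every treated library labelled spleen lay above the mean of its untreated libraries and every treated library labelled lymph node lay below. The untreated libraries labelled lymph node ranged widely, and the lowest (53.1 normalised counts) lay below both 1 day libraries (64.5 and 64.9). The difference between the labels was not tested.

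Of 52 groups of members, a single library stood apart from the rest of its group in 2, and chance gives about 1 in 20. Apol6 read 15.6 normalised counts in untreated replicate 1 labelled spleen, far below the other 4, and Apol7b read 40.3 in 1 day replicate 2 labelled spleen.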

How the results depend on the processing

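Of 454 alternative values for 26 member results, 427 kept their direction and their side of the threshold, 12 came to pass, 12 ceased to pass and 3 changed sign. Under the spleen label at 1 day the 2 members called became 1 with quantile normalisation, with only the groups compared and under the fold rule (unadjusted p at most 0.05 and fold of at least 1.5), 3 with library weights (Apol7c added), and 1 to 2 with a library left out. At 3 days the 0 called became 3 with library weights, 1 with DESeq2 and 0 to 1 with a library left out (without 3 day replicate 1, Apol10b 0.37, adjusted p = 0.0320). Under the lymph node label at 14 days the 1 called became 0 with only the groups compared, 2 with library weights, 2 with edgeR, 3 with DESeq2, 4 under the fold rule and 0 to 2 with a library left out. At 14 days against 1 day the 0 called became 1 with DESeq2 and 3 under the fold rule. Over all genes the fold rule took 1497 of 18243 at 1 day under the spleen label. Under the lymph node label it took 630 of 18215 at 14 days and 779 of 18215 at 14 days against 1 day. The sign changes were Apol6 at 3 days under the spleen label (-0.0037 with library weights, -0.086 to 0.78 with a library left out) and Apol8 at 1 day under the lymph node label (-1.08 to 0.44 with a library left out). The correlation with the interferon score under the lymph node label fell on group deviations to 0.31 for Apol9a and 0.14 for Apol9b, and to 0.51 for Apol9b without the 2 farthest libraries. The cause was not tested. Of 25 member differences under 0.25, 14 took the opposite sign in some alternative. Leaving out 1 of the 2 libraries at 1 day assumes that the other varies like the rest.

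With the replicate number as a block the members called stayed at 2, 0 and 0 under the spleen label at 1, 3 and 14 days, and at 0, 1 and 0 under the lymph node label at 1 day, 14 days and 14 days against 1 day. Deviations of same-numbered libraries correlated above 0.1 in 13 of 30 pairs under the spleen label (lowest -0.50) and in 0 of 16 under the lymph node label. Their median correlation was 0.035 under the spleen label, against -0.008 for other-numbered pairs. Under the lymph node label it was -0.013, against 0.007. These values do not settle whether the numbers pair the libraries.

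Counts over all genes moved more. At 3 days under the spleen label 1013 genes were called, against 4722 with library weights, 1686 with DESeq2, 572 with no filter, 140 with only the groups compared and 158 to 2782 with a library left out. Under the lymph node label the 221 called at 1 day became 132 with the block, 139 with no filter, 540 with DESeq2 and 66 to 125 with a library left out. The 144 at 14 days became 55 with only the groups compared, 278 with library weights, 381 with DESeq2 and as few as 31 with a library left out. The 73 at 14 days against 1 day became 47 with no filter or quantile normalisation, 39 with only the groups compared, 13 with library weights, 385 with DESeq2 and 17 to 128 with a library left out.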
